A study of Mus musculus with 8 samples.

Results

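Gdf15-high cells were tumor myeloid cells chosen by 4 genes. Most of their marker levels lay between those of Ly6c2-high monocytes and C1q-high macrophages, but so did those of cells outside these gates. The base set held 8375 cells with 500 to 6000 detected genes, under 10% mitochondrial counts, at least 2000 counts, at most 1 count of Cd3d, Cd3e and Cd3g together and no count of Ncr1. For each cell, a score added up the counts of Gdf15, Nupr1, Kdr and Hcar2 per 10,000 counts, and the 837 cells with the highest 10% of scores, ranked over all mice together, were the members. They were 837 of 10605 cells that passed the filters on genes and mitochondrial counts, of 11430 deposited. The 4 score genes therefore chose the cells, and their levels are described below without a test.

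The cells were CD45+ cells sorted from E0771 tumors, a mouse mammary carcinoma model, grown in the inguinal mammary fat pad of female mice and collected on day 18. Parental tumors came from the original E0771 line (mice 1 and 3, n = 2), and the tumors of E0771-Res1 and of E0771-Res2 (n = 3 for each line) came from lines that the study isolated from tumors relapsing after paclitaxel with an anti-PD-1 antibody. Cells of the mice were tagged, pooled and assigned to their mouse by tag, which gave 1 table of droplet counts per mouse, with 5036667 to 18894504 counts in all and 179839 to 1361005 counts in its Gdf15-high cells. Each resistant group stands for 1 line, another parental mouse was not analysed here, and all comparisons with parental tumors share the same 2 control mice. No cell barcode occurred in the tables of more than 1 mouse. Replicates were separate mice throughout.

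Gdf15 encodes a secreted stress cytokine of the TGF-beta superfamily that acts through a brainstem receptor, and Nupr1 encodes a small stress-induced nuclear protein. Both are known targets of ATF4, the transcription factor of the integrated stress response, in which phosphorylation of eIF2-alpha lowers general translation while ATF4 is made. Kdr encodes a receptor for VEGF best known from endothelium, and Hcar2 a receptor for the ketone body beta-hydroxybutyrate and for niacin. Monocytes that enter a tumor lose Ly6c2 and gain C1q genes and lysosomal genes as they become macrophages.

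Gdf15 (GRCm38 chr8:70629393-70632456, minus strand) made up most of the score. Pooled over the members, Gdf15 reached 15.4 counts per 10,000, Nupr1 7.29, Kdr 2.51 and Hcar2 1.87, against 0.772, 2.00, 0.581 and 0.391 in the other 7538 cells of the base set. In single mice, the Gdf15 level of the members was 10.9 and 9.34 counts per 10,000 in the parental mice, 14.9, 16.5 and 10.0 in the E0771-Res1 mice and 15.3, 18.2 and 17.2 in E0771-Res2 tumors. All E0771-Res2 mice lay above both parental mice, and the E0771-Res1 mice overlapped both groups. Since Gdf15 helped to choose these cells, this order is not read as a difference between tumor lines. A Gdf15 count was found in 76.9% of members and a Nupr1 count in 84.0%, but Kdr and Hcar2 in 56.4% and 39.2%. As a background for free RNA, 274 T cells without Csf1r and with few or no C1q counts were taken. They had a Gdf15 count in 7.66% of cells and a Nupr1 count in 16.1%, at a median of 6090.5 counts per cell against 5645 in the members. T cells with more C1q counts were left out, so these shares may understate the free RNA of myeloid cells. With every cell thinned to 2000 counts, the shares with a Gdf15 count were 67.1% of members, 11.8% of other base set cells and 2.19% of the T cells.

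The score had no gap at its limit. The 5 members nearest the limit scored 15.24 to 15.26, and the 5 nearest cells outside it scored 15.17 to 15.22. Within 1 point of the limit lay 85 members and 100 other cells. Members had a median score of 22.7 and a highest score of 149.5, and the others had a median of 2.95, with 19.8% of them at 0. When scores were computed at 2000 counts per cell, with a limit of 4 counts, 71.7% of the members were chosen again. The members are thus the upper range of a score without a gap at the limit.

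The 4 score genes were only loosely linked from cell to cell. Gdf15 was the highest of them in 460 members (55.0%), Nupr1 in 260 (31.1%), Kdr in 42 and Hcar2 in 36, with 39 ties. Counts of all 4 genes occurred in 120 members, of 3 in 336, of 2 in 278 and of 1 in 103. Over the 8375 cells, thinned to one depth, Spearman's rho between pairs of the 4 genes ran from 0.020 for Gdf15 with Nupr1 to 0.094 for Gdf15 with Kdr, a description of sparse counts from the same libraries.

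Start regions are shown of Gdf15 and Nupr1, which led most of the members, and of Slc7a11 and Gclm, which are described below for the members of E0771-Res1 tumors. The windows are RefSeq promoters on GRCm38.p6, from 250 bases before to 50 bases after the start, written 5′ to 3′ on the strand of the gene. Motifs were chosen with the values known, were searched on both strands and stand in capitals: the C/EBP-ATF composite element TGATGNAA, which ATF4 can bind with a C/EBP partner, the E-box CACGTG, and the antioxidant response core TGACNNNGC of NRF2. Gdf15 is drawn from chr8:70632046-70632345 (minus strand), 1 of its 2 starts, and holds an E-box 83 bases before the start. Nupr1, from chr7:126625421-126625720 (minus strand), holds a composite element 110 bases and an E-box 225 bases before it. Slc7a11, from chr3:50443564-50443863 (minus strand), holds composite elements 66 and 47 bases before the start on opposite strands, and Gclm, from chr3:122245307-122245606 (plus strand), an antioxidant core 134 bases before it.
Gdf15: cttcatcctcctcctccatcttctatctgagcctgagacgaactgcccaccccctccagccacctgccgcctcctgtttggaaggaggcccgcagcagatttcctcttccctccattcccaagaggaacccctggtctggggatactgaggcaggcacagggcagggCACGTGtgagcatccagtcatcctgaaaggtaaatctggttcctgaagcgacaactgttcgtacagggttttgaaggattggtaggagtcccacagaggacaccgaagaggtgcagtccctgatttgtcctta
Nupr1: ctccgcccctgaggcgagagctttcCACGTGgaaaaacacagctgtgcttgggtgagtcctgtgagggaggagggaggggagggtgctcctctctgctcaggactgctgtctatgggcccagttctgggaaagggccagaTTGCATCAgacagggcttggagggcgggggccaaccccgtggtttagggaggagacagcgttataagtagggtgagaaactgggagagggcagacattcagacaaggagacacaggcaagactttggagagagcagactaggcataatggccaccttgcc
Slc7a11: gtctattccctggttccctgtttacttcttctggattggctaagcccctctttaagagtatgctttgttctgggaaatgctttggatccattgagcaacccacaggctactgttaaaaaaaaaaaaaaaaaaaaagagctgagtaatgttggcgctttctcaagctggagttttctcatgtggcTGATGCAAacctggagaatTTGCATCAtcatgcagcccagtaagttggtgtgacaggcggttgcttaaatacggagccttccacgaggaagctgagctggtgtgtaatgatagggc
Gclm: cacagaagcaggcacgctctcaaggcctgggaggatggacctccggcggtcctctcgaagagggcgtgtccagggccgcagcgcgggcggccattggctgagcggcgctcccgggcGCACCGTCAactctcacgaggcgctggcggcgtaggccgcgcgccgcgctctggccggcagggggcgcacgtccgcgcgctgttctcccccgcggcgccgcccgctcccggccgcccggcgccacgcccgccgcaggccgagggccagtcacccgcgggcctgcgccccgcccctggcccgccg
Of 32851 promoters of this length, 3.97% held the composite element, 7.15% the E-box and 12.4% the antioxidant core. Such a match is a description and not a bound site. The cAMP response element TGACGTCA (1.79% of promoters) and the AP-1 site TGACTCA (5.20%), which can overlap the antioxidant core, were searched as well and were not in the windows shown. The other Gdf15 window, chr8:70632407-70632706, spans the 5′ end of the gene as given above and held none of these letters. The Gdf15 window shown lies inside the gene. The Kdr window held an antioxidant core 50 bases before its start.

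The marker genes fixed for monocytes and macrophages put the members between the 2 reference populations, but the other cells of the base set lay there too. The references were gated like the members: 798 C1q-high cells (highest 10% by C1qa, C1qb and C1qc) and 767 Ly6c2-high cells (highest 10% by Ly6c2, Plac8 and Vcan). Chil3, a chitinase-like protein, was at 15.1 counts per 10,000 in Ly6c2-high cells, 2.76 in Gdf15-high cells and 0.366 in C1q-high cells, as means of the 8 mice. Hp, the hemoglobin-binding haptoglobin, was at 3.86, 0.684 and 0.0704. Members lay between both references in 8 of 8 mice for Hp, Chil3, Fn1, Ifitm6, S100a4 and Ms4a4c. On the macrophage side, Trem2, a lipid-sensing receptor, was at 0.396 in Ly6c2-high, 1.11 in Gdf15-high and 3.61 in C1q-high cells, and Ms4a7 at 2.65, 12.7 and 32.2. Trem2, Ms4a7, Cd63, Maf, Pf4 and Aif1 were between the references in 8 of 8 mice. The cells outside all 3 gates had 1.67 of Hp, 6.08 of Chil3, 1.35 of Trem2 and 10.5 of Ms4a7, so that being between the references did not mark the Gdf15-high cells alone. Gated genes aside, some markers left the middle: Clec4e, a receptor for mycobacterial lipid, was above both references in 5 of 8 mice, and Csf1r was below both in 5.

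**Figure D1:**
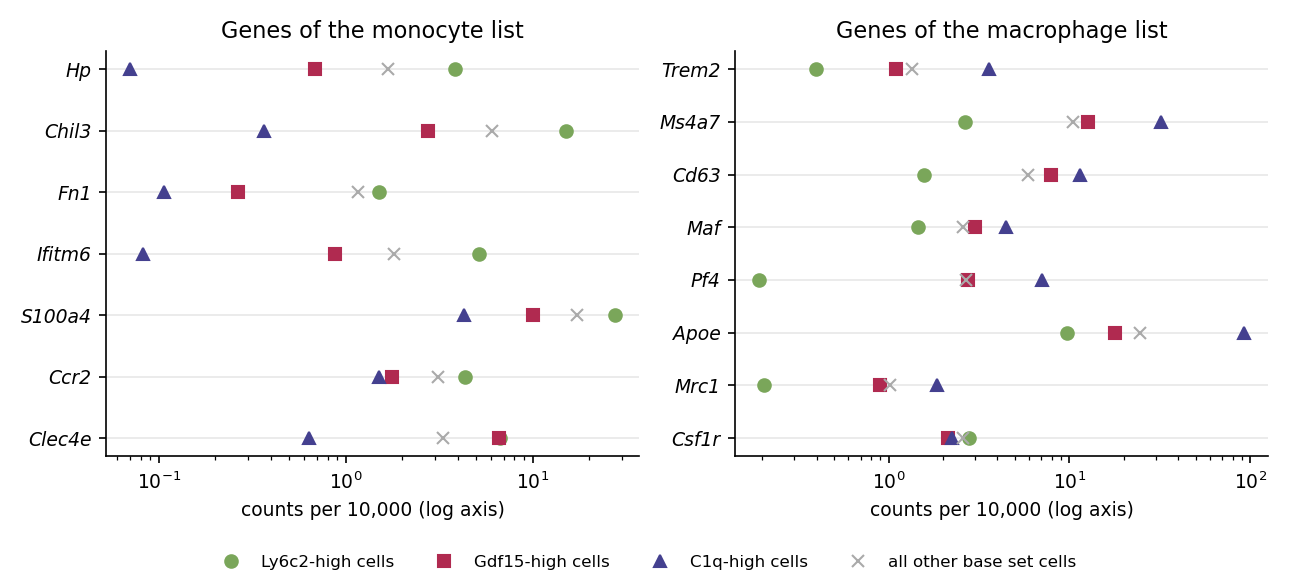
Mean counts per 10,000 (log axis) of 7 genes of the monocyte list and 8 of the macrophage list in Ly6c2-high, Gdf15-high, C1q-high and all other base set cells, each point the mean of 8 mice. The red squares of Hp, Chil3, Trem2 and Ms4a7 lie between the green circles and blue triangles, as do the grey crosses of the ungated cells.

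Members were taken out of both references by the gating, so that they share no cells with them follows from the rule. Before that step 39 members (4.66%) were in the highest 10% by C1q, and 62 (7.41%) in the highest 10% by the monocyte gate genes. Each of these limits takes 10% of all base set cells by construction, so the shares are a description only. Summed over the members, the C1q genes stood at 33.3 counts per 10,000 against 51.3 in other base set cells. The Ly6c2, Plac8 and Vcan sum was 42.4 against 41.2, in which Ly6c2 was higher in members (27.4 against 17.0) and Plac8 lower (14.6 against 23.1). Members were also shallower, with a median of 5645 counts and 1869 genes per cell against 7516 counts and 2221 genes, and their median mitochondrial share was 1.06% against 1.48%. Whether this depth plays a part in the differences that follow was not tested beyond thinning.

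Beside the other base set cells of the same mice, the members were higher in many genes of the integrated stress response, lysosomal and inflammatory lists and lower in most MHC class II genes. Counts were summed per mouse, and edgeR compared members with the other cells within mice. Of 8640 genes tested, 981 were called higher (11.4%) and 897 lower (10.4%), 21.7% in all, at an adjusted p under 0.05. The score genes stayed out of this comparison, but the score was built on genes that led a cluster of these same cells, so nothing is read from the number of calls, and values are given as a description.

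Genes of the integrated stress response were higher in 15 of the 29 tested and lower in none, with a median log2 difference of 0.35 against -0.018 over all genes. Ddit3, which encodes the stress factor CHOP, was at 323 and 352 CPM (counts scaled to the library total by TMM) of members in the parental mice, 253, 214 and 358 in the E0771-Res1 mice and 370, 296 and 443 in E0771-Res2 tumors. The other cells had 132 and 131, then 88.4, 91.3 and 138, then 139, 137 and 152 CPM. Members were thus higher in each mouse, and no member value fell into the range of the other cells, with a log2 difference of 1.37 ± 0.07 (SE, 8 mice). Trib3, a pseudokinase that inhibits this pathway, differed most at 2.16 ± 0.27 but rested on 72 counts in all members. Slc7a11, the cystine transporter, differed by 1.16 ± 0.16, Aars by 0.87, Atf5 by 0.75, Atf3 by 0.56 and Atf4 itself by 0.49 ± 0.07. Protein folding genes of the endoplasmic reticulum were not higher in any of 16 tested, and 4 were lower, among them Dnajc3 and Pdia4. Of 11 p53 targets, 4 were higher (Mdm2 0.65, Pmaip1 0.50, Bbc3 0.42 and Bax 0.28) and Sesn1 was lower.

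Antioxidant and iron genes followed with 9 of 16 NRF2 targets higher and 3 lower (median 0.41). Fth1, the ferritin heavy chain that stores iron, was one of the most abundant transcripts of the members. It was at 30291 and 43633 CPM in the parental mice, 43074, 64544 and 50607 in the E0771-Res1 mice and 45434, 41748 and 42731 in E0771-Res2 members, against 21093 to 32003 in the other cells of the 8 mice. Each mouse had more Fth1 in its members, although parental mouse 1 fell within the range of the other cells (log2 difference 0.85 ± 0.06). Sqstm1, the autophagy receptor p62, was 0.99 ± 0.08 higher, Gclm, a subunit of the enzyme that starts glutathione synthesis, 1.10 ± 0.26 and Ftl1 0.63 ± 0.06. Gsr, which recycles glutathione, was 0.82 lower on the log2 scale (log2 difference -0.82), with Taldo1 and Tkt of the pentose phosphate pathway also lower.

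Lysosomal genes were higher, and genes of lipid-associated macrophages were split. Of 21 lysosomal genes, 11 were higher and 2 lower (median 0.33), led by Gla (0.78), Tfeb (0.73) and Ctsd (0.66). Of 22 genes of the lipid and lipid-associated macrophage list, 13 were higher and 5 lower (median 0.39). Gpnmb, a glycoprotein of lysosome-rich macrophages, was at 416 and 345 CPM in the parental mice, 317, 593 and 450 in the E0771-Res1 mice and 1264, 961 and 992 in E0771-Res2 members, while the other cells had 108 and 112, then 84.7, 120 and 139, then 542, 393 and 531. The members were higher in every mouse, and the E0771-Res2 mice were highest in both populations (log2 difference 1.54 ± 0.11). Ctsk (1.43 ± 0.15), Fabp4 (1.30 ± 0.18) and Fabp5 (0.99 ± 0.07), a protease and a pair of fatty acid carriers, were higher as well. Apoe (-0.88 ± 0.09), Mmp12 (-0.76), Lpl (-0.66) and Trem2 (-0.45 ± 0.12) were lower in the members, which are the lipoprotein, elastase, lipase and receptor genes of the same list.

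Inflammatory genes were higher in 15 of 24 tested and lower in none (median 0.44). Il1rn, the antagonist of the IL-1 receptor, was at 861 and 1023 CPM in the parental mice, 1206, 1094 and 1336 in the E0771-Res1 mice and 957, 803 and 888 in E0771-Res2 members, against 381 to 545 in the other cells of all mice. The ranges did not overlap (log2 difference 1.25 ± 0.07). The chemokines Ccl3 (1.21), Ccl4 (1.19) and Cxcl2 (1.16) and the cytokine Tnf (1.19) were higher by similar amounts, whereas Il1b was at 0.06 ± 0.08. Ccl5, a chemokine that attracts T cells, was at 2648 to 4770 CPM in members and 1028 to 1414 in the others, with no overlap (1.51 ± 0.08). Immediate early genes, which also answer to tissue dissociation, were higher in 11 of 19 and lower in none, led by Ier3 (1.08), and heat shock genes were split with 3 higher and 3 lower of 12. What dissociation contributed was not tested.

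Interferon-stimulated genes were intermediate. Of 16 tested, 13 were higher than in other base set cells (median 0.44), with Isg15 at 0.72 ± 0.08, Xaf1 at 0.72 and Irf7 at 0.70. Against Ly6c2-high monocytes, however, 12 of 16 were lower and none higher (median -0.58, with 20.2% of all genes lower), and against C1q-high macrophages 13 were higher and none lower (median 0.80, with 22.9% of all genes higher). The ordering from monocyte to Gdf15-high cell to macrophage was therefore downward.

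MHC class II genes were lower in 8 of 10 tested and higher in none (median -0.63). Cd74, the invariant chain, was at 7598 and 6668 CPM in the parental mice, 6964, 2912 and 7367 in the E0771-Res1 mice and 3292, 4024 and 3241 in E0771-Res2 members. The other cells of the same mice had 8878 and 8463, then 9306, 6519 and 10624, then 4729, 4696 and 5151, which was above the members in each mouse although the ranges over all mice overlapped (log2 difference -0.51 ± 0.07). Ciita, the master regulator of these genes, was at -0.90, H2-DMb1 at -0.83 and H2-Ab1 at -0.59. Other base set cells also held more dendritic cell markers, at 2.02 counts per 10,000 over the 9 genes of the list (Ccr7 the most abundant) against 0.942 in members, where Xcr1 was at 0. What part this had in the MHC class II values was not tested. Against C1q-high macrophages all 6 MHC class II genes tested were lower (22.4% of all genes), and against Ly6c2-high monocytes 4 of 6 were higher (19.5% of all genes) and 1 lower. Ccr7 was higher in members than in both references (log2 difference 1.92 ± 0.31 against Ly6c2-high and 2.54 ± 0.40 against C1q-high cells). Without cells that had 2 or more counts of dendritic cell markers, an alternative added after seeing the data, Serpinb6b turned from -2.03 to 0.22.

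Of 13 genes of T cell suppression and checkpoint ligands tested, 4 were higher and 2 lower (median 0.15). Cd274, which encodes the checkpoint ligand PD-L1, was at 512 and 352 CPM in the parental mice, 387, 328 and 400 in the E0771-Res1 mice and 347, 319 and 319 in E0771-Res2 members, against 162 to 217 in the other cells. No member value reached down to those of the others (log2 difference 1.00 ± 0.07). Il10 (0.96), Pdcd1lg2 (0.94) and Nos2 (1.83, with 45 counts in all members) were higher as well, and Vsir, which encodes the checkpoint protein VISTA, was lower (-0.44). Of 6 genes of the VEGF family and its receptors other than Kdr, Flt1 (0.76), Pgf (0.72) and Vegfb (0.56) were higher, and Vegfa was at 0.26 ± 0.14. Hypoxia and glycolysis genes were higher in 1 of 21, cell cycle genes lower in 5 of 14 and higher in none, and phagocytosis genes higher in 2 and lower in 2 of 15.

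**Figure D2:**
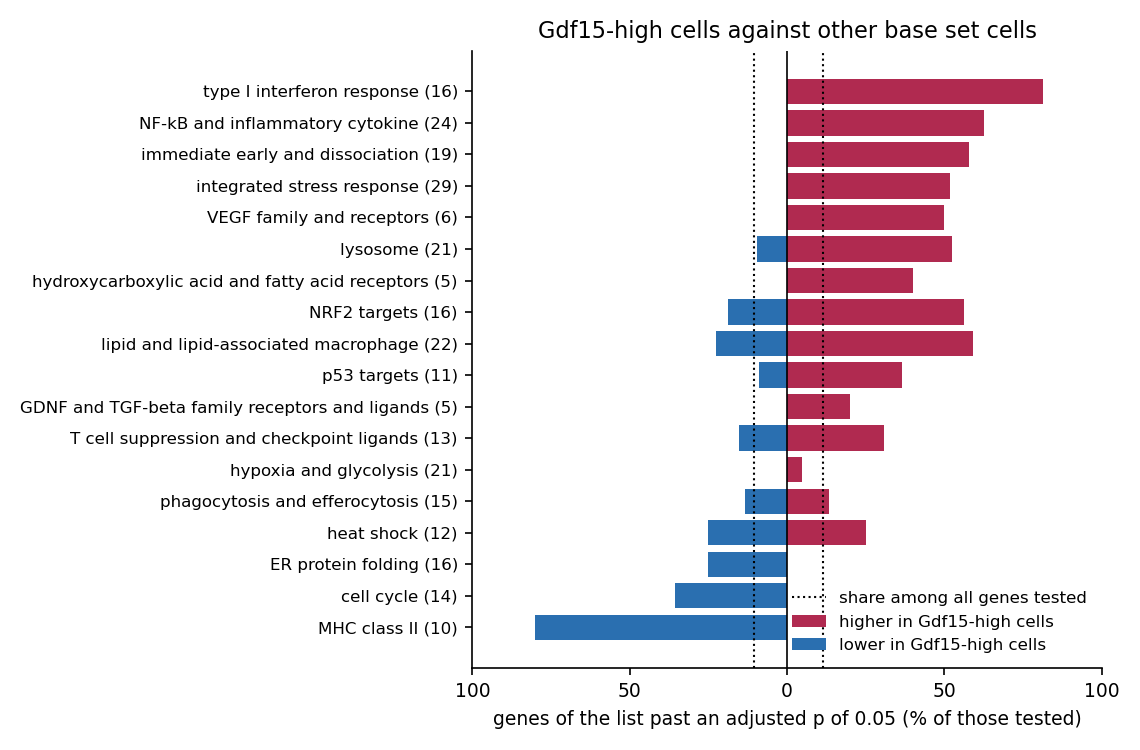
Percentage of the tested genes of each list (number tested in parentheses) that were higher (red, to the right) or lower (blue, to the left) in Gdf15-high cells than in the other base set cells of the same mice, with dotted lines at the shares over all genes, 11.4% and 10.4%. Interferon, inflammatory, integrated stress response and lysosomal lists extend to the right, and MHC class II and cell cycle lists to the left.

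By the rule for naming single genes (the 10 with the largest log2 difference in each direction that had the same sign in all 8 mice and an average of at least 5 log2 CPM), the members were higher in Spic (1.78 ± 0.16), the heme-induced factor of iron-recycling macrophages, Edn1 (1.54 ± 0.16), the vasoconstrictor endothelin-1, Plk2 (1.51 ± 0.08), Ccdc180 and Gadd45b (1.39 ± 0.06), besides Gpnmb, Ccl5, Ctsk and Ddit3. They were lower in Mgl2 (-2.56 ± 0.28), a lectin of alternatively activated macrophages and dendritic cells, Fn1 (-1.95 ± 0.14), fibronectin, Trf (-1.78), Mgst1 (-1.73), Cx3cr1 (-1.70 ± 0.16), the fractalkine receptor, Fscn1 (-1.60), Tbc1d4 (-1.53), Ramp1 and Mef2c (both -1.39), and in Serpinb6b. Gadd45b, a stress-induced regulator of MAP kinases, was at 1899 to 2797 CPM in members and 668 to 1171 in the others. Fn1 was at 12.8 to 66.6 in members and 66.9 to 177 in the others, so neither gene overlapped between the populations.

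Against C1q-high macrophages, 1248 of 5452 genes were called higher (22.9%) and 1219 lower (22.4%), 45.2% in all. Slpi, a protease inhibitor, was 5.10 ± 0.16 higher on the log2 scale, Slc7a11 3.78 ± 0.27, Mcemp1 3.61, the coagulation factor F10 3.51 and Clec4e 3.49 ± 0.12. Ly6i, Hp, Acod1, which makes itaconate, and Edn1 followed at 3.19 to 3.13. The macrophage genes Cadm1 (-3.15), Ccl8 (-2.84), Cx3cr1 (-2.79), Apoe (-2.45 ± 0.13) and Folr2 (-2.32) were lower, as were Ctla2b, Gatm, Fcrls, Cd81 and Clec4b1. Inflammatory genes were higher in 19 of 20 (median 1.23 against -0.0048 over all genes), with Ccl7 the 1 that was lower. The lipid list was higher in 11 of 22 and lower in 7 (median 0.28), with Trem2 (-1.67) and Lpl (-1.37) among the lower ones besides Apoe.

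Against Ly6c2-high monocytes, 1011 of 5174 genes were called higher (19.5%) and 1045 lower (20.2%), 39.7% in all. The lipid list was higher in 19 of 21 and lower in 1 (median 1.501 against 0.033 over all genes), led by Ctsk (3.81 ± 0.25), Gpnmb (2.96 ± 0.16) and Fabp4 (2.73 ± 0.24). Igf1, a growth factor made by tissue macrophages, was 3.71 ± 0.24 higher and Pf4 3.43 ± 0.25, and Syngr1, Anpep, Il7r and Hpgds 3.34 to 2.78. Inflammatory genes were higher in 9 of 20 and lower in 3 (median 0.18), among them Cxcl10 (-1.46). C1qa was 2.63 higher, but the monocyte gate left out C1q-high cells. Lower were Mgst1 (-2.96), Ifitm6 (-2.74), Hp (-2.67), Fn1 (-2.65) and Chil3 (-2.56 ± 0.20), with Tppp3, Ramp1, Glipr2 and Trf. All these differences from both references are descriptions of gated cells.

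Likeness to the score was measured over the 8375 cells at one depth. Spearman's rho, over 4206 genes in at least 5% of cells, was highest for Fth1, a ferritin subunit, at 0.27 (0.19 to 0.34 within single mice), then Ftl1 at 0.23, Slamf7 at 0.23, B2m at 0.22, Gadd45b at 0.21 and Atp6v0c at 0.20, with Cstb, Ctsb, Il1rn and Ccl4 at 0.20 to 0.19. These values are weak and share libraries and depth.

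The share of base set cells that were Gdf15-high was 6.27% (exact 95% interval 4.75 to 8.10) and 5.65% (3.76 to 8.11) in the 2 parental mice. It was 4.57% (3.60 to 5.71), 9.90% (7.39 to 12.9) and 6.04% (4.43 to 8.03) in E0771-Res1 mice. In E0771-Res2 mice it was 13.9% (12.2 to 15.7), 12.5% (10.7 to 14.6) and 15.2% (13.5 to 17.1). The E0771-Res2 mice all lay above the others, while E0771-Res1 overlapped parental, with mouse 2 above its group. Means were 5.96% ± 0.441 (SD, n = 2), 6.84% ± 2.75 (n = 3) and 13.9% ± 1.34 (n = 3). In two-sided exact permutation tests, E0771-Res2 differed from parental by 7.91 points (p = 0.1, adjusted 0.2) and from E0771-Res1 by 7.03 points (p = 0.1, adjusted 0.2), where 0.1 was the smallest p that these numbers of mice allow. E0771-Res1 differed from parental by 0.877 points (exact p = 0.9, adjusted 0.9), and both resistant lines together by 4.39 points (exact p = 0.321, adjusted 0.429, smallest possible 0.0357), so no difference passed 0.05. Without E0771-Res1 mouse 2, E0771-Res1 was 0.653 points below parental (-0.653). The intervals cover counting error only. A larger share of these cells in E0771-Res2 tumors had been seen in these data before this rule was set.

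**Figure D3:**
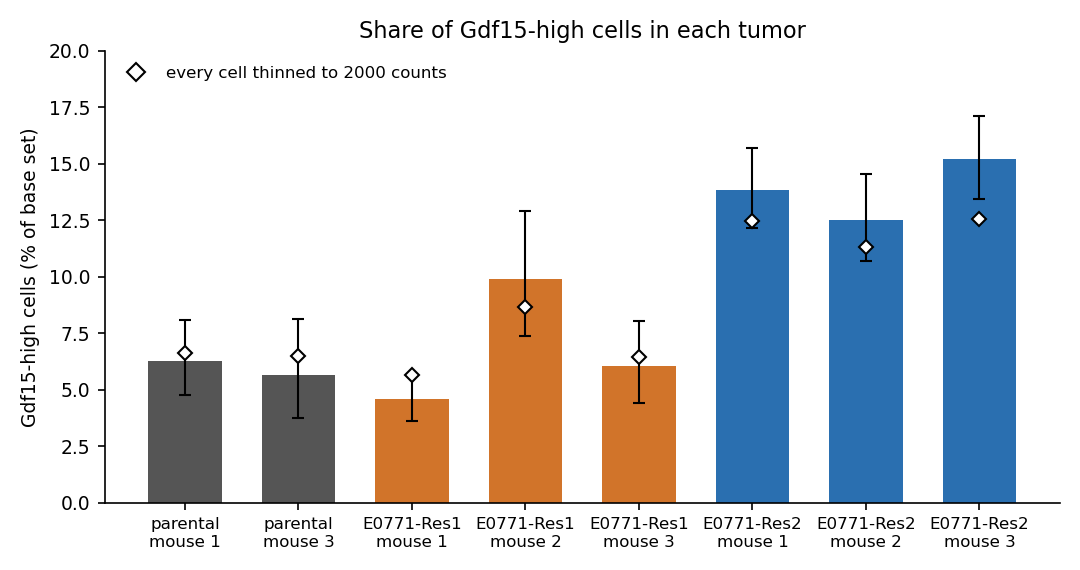
Gdf15-high cells as a percentage of base set cells in each of the 8 mice (bars, with exact 95% binomial intervals) and with every cell thinned to 2000 counts (diamonds). The 3 E0771-Res2 mice stand at 12.5% to 15.2%, above the other 5 at 4.57% to 9.90%.

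Median depth differed between tumors beside these shares. Base set cells had a median of 8212 and 8147.5 counts in the parental mice, 8270, 8472 and 7900 in the E0771-Res1 mice and 7207, 5986 and 5871 in E0771-Res2 mice, so the group with the most members was also the shallowest. Thinned to 2000 counts, the shares were 6.62% and 6.49%, then 5.64%, 8.66% and 6.46%, then 12.5%, 11.3% and 12.6%, and the groups kept their order. With a score of the other 3 genes, E0771-Res2 was 1.93 points above parental and 4.05 points above E0771-Res1, and E0771-Res1 was 2.12 points below parental (-2.12).

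The gene that led the score also varied with the tumor. Gdf15 led 38.9% and 33.3% of members in the parental mice, 46.6%, 64.6% and 36.4% in the E0771-Res1 mice and 60.3%, 58.5% and 58.3% in E0771-Res2 mice. Nupr1 led 40.7% and 44.4%, then 45.2%, 25.0% and 54.5%, then 23.4%, 32.0% and 26.0%. E0771-Res2 mice were thus closer to each other than E0771-Res1 mice were for both genes. They also had more members, at 209, 147 and 235 per mouse against 73, 48 and 44 in E0771-Res1, so their shares carry less counting error. What part this had in the spread was not tested.

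Members led by Gdf15 and members led by Nupr1 differed in much more than these 2 genes. In the 7 mice with at least 10 of each, 102 of 1495 genes compared were higher in Gdf15-led members in every mouse and 124 in Nupr1-led members, which is a description of cells split by their own values. Hmox1, the heme oxygenase that frees iron, was at 14.1 counts per 10,000 in Gdf15-led and 2.52 in Nupr1-led members, Slc40a1, the iron exporter ferroportin, at 1.01 and 0.0155, and Slc48a1, a heme transporter, at 1.01 and 0.293. Spic was at 1.58 and 0.496. Pf4 was at 4.83 and 0.294, Mrc1, the mannose receptor, at 1.64 and 0.216, Trem2 at 1.73 and 0.520 and Apoe at 25.2 and 9.93. Ccl5 was at 14.3 in Gdf15-led and 47.7 in Nupr1-led members, Cxcl9 at 1.75 and 6.52, Ly6i at 1.75 and 4.77 and Gbp2 at 1.27 and 2.73. The C1q genes together were at 40.7 in Gdf15-led and 23.4 in Nupr1-led members of all mice, the macrophage list at 90.2 and 56.5 and the monocyte list at 87.1 and 112. Not all genes of a list went the same way. Of 12 macrophage genes compared, 10 had a higher mean in Gdf15-led members, and Csf1r (2.07 and 2.32) and Aif1 (13.8 and 14.9) had a higher one in Nupr1-led members. Of 8 monocyte genes, 6 were higher in Nupr1-led members, and Thbs1 (1.98 and 1.08, higher in 6 of 7 mice) in Gdf15-led members, while Ccr2 had a higher mean in Gdf15-led members (2.05 and 1.84) but was higher there in 2 of 7 mice. Of 15 interferon-stimulated genes, 14 had a higher mean in Nupr1-led members, but of these only Rsad2, Usp18, Zbp1, Irf7 and Bst2 were higher there in every mouse. These tallies of lists go by the mean, and no share over all 1495 genes was computed for them, so they are descriptions only.

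**Figure D4:**
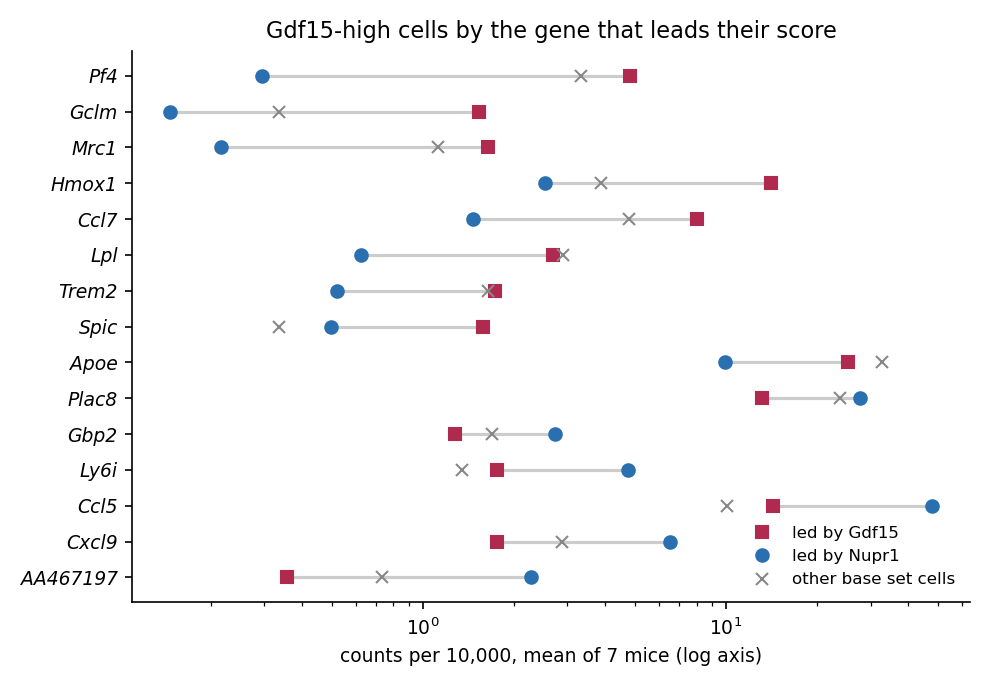
Counts per 10,000 (log axis, mean of 7 mice) of 15 genes in Gdf15-high cells led by Gdf15 (red squares), in those led by Nupr1 (blue circles) and in other base set cells (grey crosses). Pf4, Gclm, Mrc1 and Hmox1 are higher in Gdf15-led and Ccl5 and Cxcl9 in Nupr1-led cells.

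Between tumor lines the rule left genes outside the score free to vary, and the members of the 8 mice were compared in 1 edgeR quasi-likelihood fit of 5214 genes. Between E0771-Res1 and parental, 3 genes were called (0.0575%), all higher in E0771-Res1. Between E0771-Res2 and parental 5 were called (0.0959%), 3 higher and 2 lower, and between E0771-Res2 and E0771-Res1 40 were called (0.767%), 9 higher and 31 lower. The parental groups were small, at 54 and 27 members. Without parental mouse 1 or 3, the calls of E0771-Res1 against parental were 0 and 1 and those of E0771-Res2 against parental 1 and 0. Without E0771-Res2 mouse 1 or 3, the calls between the resistant lines were 7 and 4, and those of Hmox1, Gclm, Gpnmb, Mmp12, Cxcl2 and Ptgs2 described below were then lost in the same direction, while Ctsk was lost without mouse 3 alone.

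Hmox1 (GRCm38 chr8:75093621-75100589, plus strand) was 1 of the 3 genes called between E0771-Res1 and parental members. It was at 189 and 166 CPM in the parental mice, 1981, 3529 and 1036 in the E0771-Res1 mice and 297, 665 and 460 in E0771-Res2 tumors. The 3 groups did not overlap, with E0771-Res1 highest. The log2 difference was 3.59 ± 0.49 between E0771-Res1 and parental (edgeR quasi-likelihood test, adjusted p = 0.00784) and -2.21 ± 0.35 between E0771-Res2 and E0771-Res1 (edgeR adjusted p = 0.00792). In the other base set cells Hmox1 was at 290 and 234, then 387, 1263 and 330, then 292, 394 and 313 CPM, and the change from parental to E0771-Res1 was 2.40 ± 0.26 larger in members than in the other cells (interaction in edgeR, adjusted p = 5.75e-06).

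In the E0771-Res1 mice Hmox1 was higher in Gdf15-led than in Nupr1-led members. Among Gdf15-led members, it was at 1.67 and 0.982 counts per 10,000 in the parental mice, 28.5, 39.6 and 14.7 in the E0771-Res1 mice and 2.57, 7.25 and 4.19 in E0771-Res2 mice. Among Nupr1-led members it was at 1.30 and 2.35, then 0.601, 4.93 and 2.92, then 2.34, 3.03 and 2.53. The first set of groups did not overlap and the second did, and no test was made of cells split in this way. The value of parental mouse 3 among Gdf15-led members rests on 9 cells, below the minimum of 10 set for the 7 mice above. When Gdf15 was taken out of the score, the difference of Hmox1 between E0771-Res1 and parental fell to 0.14 and was not called, its interaction there turned to -1.17 and the difference between E0771-Res2 and E0771-Res1 to 0.53. The interaction between the resistant lines then passed the test in the opposite direction (1.496, edgeR adjusted p = 0.0017). These results thus hold for members chosen with Gdf15 in the score. The call between E0771-Res1 and parental was lost in 10 alternatives, among them those without either parental mouse (3.69 and 3.54, with the lone parental sample assumed to vary like the others).

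Gclm (GRCm38 chr3:122245557-122270732, plus strand) showed the same order on few counts. Members gave 3 and 0 counts in the parental mice, 69, 124 and 32 in the E0771-Res1 mice and 18, 44 and 27 in E0771-Res2 tumors, or 9.60 and 0, then 168, 428 and 133, then 16.2, 66.2 and 26.1 CPM. E0771-Res1 stood apart from both other groups. Against the 3 parental counts, the E0771-Res1 members had 34.7 times as many Gclm counts per total count (exact 95% interval 11.7 to 169.7). That interval pools the mice of each line and covers counting error only, not the spread between mice. In the edgeR fit of members, Gclm was not among the 3 genes called between E0771-Res1 and parental. E0771-Res2 members had 2.86 less than E0771-Res1 on the log2 scale (-2.86 ± 0.46, edgeR adjusted p = 0.00792). In the other cells Gclm was at 24.0 to 29.4 CPM in parental and E0771-Res2 mice and at 42.3, 108 and 29.6 in E0771-Res1 mice. Interactions passed the test for Gclm in E0771-Res1 against parental (edgeR adjusted p = 0.00488) and in E0771-Res2 against E0771-Res1 (-1.71 ± 0.29, edgeR adjusted p = 0.0082). Without Gdf15 in the score, Gclm turned to 0.31 between the resistant lines and its interaction there to 1.498, and its interaction in E0771-Res1 against parental was at 0.33 and no longer called.

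Of the 16 NRF2 targets in the interaction fit, Gclm, Hmox1 and Prdx1 were higher for E0771-Res1 against parental, with a median of 0.84 against 0.052 over all genes. In that comparison 12 of 9648 genes were called (0.124%), all of them positive. Slc7a11 was among them (1.79 ± 0.38, edgeR adjusted p = 0.0459), with 86.4 and 83.1 CPM in the parental mice, 556, 697 and 158 in the E0771-Res1 mice and 139, 283 and 213 in E0771-Res2 members. E0771-Res1 members lay above parental members but overlapped E0771-Res2 through mouse 3. The Slc7a11 interaction turned to -0.16 without Gdf15 in the score and was no longer called without either parental mouse (1.88 and 1.77) or E0771-Res1 mouse 1 (1.40). Spp1, osteopontin, was at 64.0 and 38.4 CPM in parental members and 188, 990 and 1157 in E0771-Res1 members (interaction 3.34 ± 0.63, edgeR adjusted p = 0.0129), and its E0771-Res1 mice ranged widely. The Spp1 interaction fell to 0.054 when the score was taken at 2000 counts per cell and was lost in 10 alternatives. Cd14, the coreceptor for lipopolysaccharide, was at 457 and 416 CPM in parental and 853, 1187 and 916 in E0771-Res1 members, without overlap (1.15 ± 0.19, edgeR adjusted p = 0.0388, interaction 1.14 ± 0.17). The call of Cd14 between these members was lost in 17 alternatives, at 0.41 to 1.22, among them those without either parental mouse.

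Inhba, the activin A subunit of the TGF-beta superfamily to which Gdf15 belongs, was higher in members of both resistant lines. It was at 16.0 and 51.1 CPM in the parental mice, 322, 273 and 200 in the E0771-Res1 mice and 181, 122 and 206 in E0771-Res2 members. All resistant tumors lay above both parental tumors. The differences from parental were 3.23 ± 0.43 in E0771-Res1 (edgeR adjusted p = 0.00784) and 2.58 ± 0.44 in E0771-Res2 (edgeR adjusted p = 0.0416), which share the same controls and rest on 5 and 8 parental counts. In the other base set cells Inhba was at 43.1 and 21.0, then 61.3, 67.5 and 42.9, then 34.1, 31.2 and 35.4 CPM, and the interactions were 2.53 ± 0.43 and 2.65 ± 0.42 (edgeR adjusted p = 0.00488 and 0.00326). Without parental mouse 1, these 2 interactions fell to 0.97 and 1.12 and neither difference from parental passed the test. The difference of E0771-Res2 from parental was not called without parental mouse 3 either (3.41). Without Nupr1 in the score, the difference of Inhba from parental was at 1.15 in E0771-Res1 and 0.22 in E0771-Res2, and the interactions were at 0.20 and -0.044, none of them called. The call of E0771-Res2 against parental was lost in 16 alternatives in all. Inhba was the 1 called gene of the 5 tested in its family list in each of these comparisons. In E0771-Res2 against parental, 2 of 9648 interactions were called (0.0207%), Inhba and Ctsk (-1.62 ± 0.25).

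**Figure D5:**
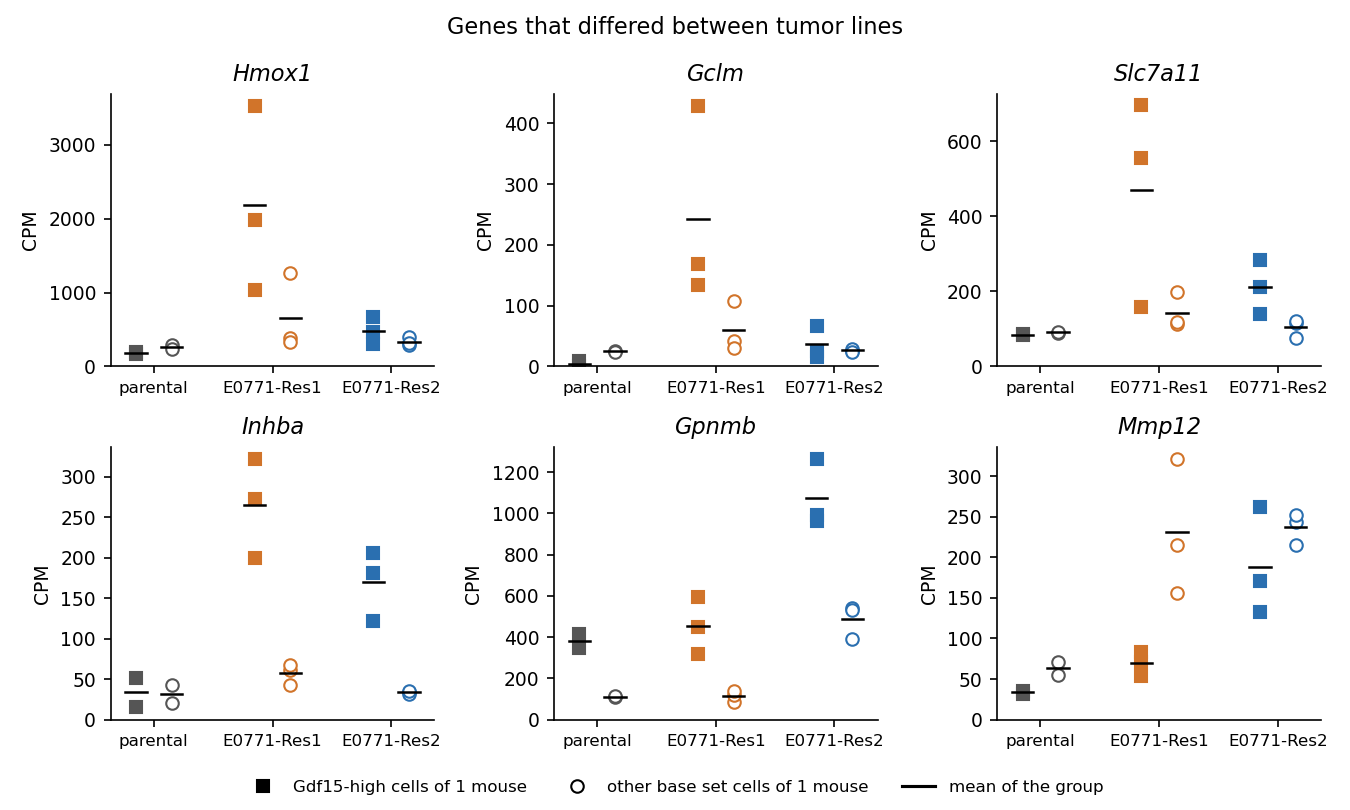
CPM of 6 genes in Gdf15-high cells (filled squares) and other base set cells (open circles) of each mouse by tumor line, with the group mean as a line. Hmox1, Gclm and Slc7a11 peak in E0771-Res1 members, Inhba is low in both parental mice, and Gpnmb is highest in E0771-Res2.

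E0771-Res2 members carried more of some lipid-associated genes. Gpnmb, with the values given above, was 1.47 ± 0.24 higher than in parental (edgeR adjusted p = 0.0333) and 1.26 ± 0.20 higher than in E0771-Res1 members (edgeR adjusted p = 0.00782), with no overlap of mice. Its other cells moved alike or more, since the interaction of E0771-Res2 against E0771-Res1 was -0.83 ± 0.16 (edgeR adjusted p = 0.0174), and this interaction was at 0.0086 without Gdf15 in the score. Mmp12, a macrophage elastase, was at 35.2 and 32.0 CPM in the parental mice, 70.7, 82.8 and 54.1 in the E0771-Res1 mice and 262, 132 and 171 in E0771-Res2 members. The other cells had 70.7 and 55.5, then 322, 156 and 215, then 244, 253 and 215 CPM, where both resistant lines overlapped. In the members the 3 groups did not overlap (2.47 ± 0.39 against parental, edgeR adjusted p = 0.0333). Ctsk was at 160 and 128, then 73.1, 128 and 83.2, then 329, 206 and 274 CPM, highest in E0771-Res2 (1.54 ± 0.23 against E0771-Res1, edgeR adjusted p = 0.00685). The calls of Gpnmb and Mmp12 against parental were lost without either parental mouse, at 1.37 to 1.60 and 2.44 to 2.54, and Mmp12 against E0771-Res1, lost in 12 alternatives, was at 0.00 when Gdf15 was left out of the score. Of the 22 genes of that list tested, these 3 were higher in E0771-Res2 than in E0771-Res1 and none lower, with a median of 0.05. Fam20c, Syngr1, Hpgds, Dnmt3a, Tsc22d3 and Gpr137b were higher by 1.37 to 0.71, but the calls of Tsc22d3, Fam20c and Gpr137b were lost in 20, 15 and 15 alternatives.

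Inflammatory genes were lower in E0771-Res2 than in E0771-Res1 members, with 9 of 22 called lower and none higher (median -0.67 against -0.00895 over all genes). Cxcl2, a neutrophil chemokine, was at 4632 and 4424 CPM in the parental mice, 7108, 15348 and 9835 in the E0771-Res1 mice and 3210, 5354 and 4160 in E0771-Res2 members. E0771-Res1 members lay above all others (E0771-Res2 against E0771-Res1 -1.34 ± 0.24, edgeR adjusted p = 0.0144). Ptgs2, cyclooxygenase-2 of prostaglandin synthesis, was at 253, 611 and 350 in the E0771-Res1 mice and 126, 164 and 163 in E0771-Res2 members (-1.41 ± 0.25, edgeR adjusted p = 0.0144). Cxcl3 (-4.07), Tnf (-1.30), Nlrp3 (-1.13), Il1b (-1.12), Cd14 (-1.03), Ccl7 (-0.78) and Nfkbiz (-0.73) were the others. Cxcl3 gave 1, 105 and 64 counts in the E0771-Res1 mice and 17, 2 and 14 in E0771-Res2 members, so its groups overlapped. Cxcl9, Upp1, Slc48a1, Il1r2 and Slco3a1 were lower too, by -1.78, -2.17, -1.74, -1.42 and -1.38, with the calls of Cxcl9 and Slco3a1 lost in 12 alternatives each. Gbp2 and Upp1 were lower in E0771-Res2 than in parental members (-1.40 ± 0.22 and -2.06 ± 0.35, edgeR adjusted p = 0.0333 and 0.0416). These 2 calls were lost in 13 alternatives each, among them those without either parental mouse (-1.46 and -1.35 for Gbp2, -1.75 and -2.22 for Upp1). Of the 9 interactions called between E0771-Res2 and E0771-Res1 (0.0933% of 9648), Mmp12 was positive and 8 were negative. Of the 24 inflammatory genes in that fit, Ccl3 was the 1 called (-0.76 ± 0.13, edgeR adjusted p = 0.00851), so for the others a line difference particular to the members was not shown. Siglech, Ly6d and Sct, genes of plasmacytoid dendritic cells, were 3 of the 8, and the 25 Siglech and 44 of the 47 Ly6d counts of all members came from E0771-Res1 mouse 1. Sct was spread more widely, with 11, 31 and 1 of its 83 counts in the E0771-Res1 mice and 5, 16 and 12 in the E0771-Res2 mice.

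Integrated stress response genes were not called between the lines: none of 19 tested passed in any of the 3 comparisons of members, with medians of 0.012, 0.033 and 0.081. None of 18 lysosomal and none of 16 interferon genes was called either, which does not show that they were equal. In the interaction fit 1 of 29 stress response genes, Slc7a11, was called for E0771-Res1 against parental.

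Neutrophil genes were high in the members of 3 mice. S100a9 was at 429 and 269 CPM in the members of E0771-Res1 mice 1 and 2 and at 510 in E0771-Res2 mouse 2, but at 0 to 8.32 in the members of the other 5 mice. In those 3 mice 5 members, and 16 other base set cells of all mice, had 5 or more counts of S100a8 and S100a9. Summed over the 6 genes of the list, members had 2.83 counts per 10,000 (S100a9 most abundant) against 0.882 in other cells (Csf3r most abundant), and Ly6g was at 0 in the members of 7 mice. Without those cells, an alternative added after seeing the data, 7 genes instead of 3 were called between E0771-Res1 and parental members. Markers of fibroblasts (0.00766 counts per 10,000 over 6 genes, with Col1a1 at 0), endothelium (0.209 over 9 genes, Pecam1 the most abundant and Tek at 0) and tumor epithelium (0.0880 over 8 genes, Krt8 the most abundant) were low in members, where the other cells had 0.251 for endothelium. What part endothelial RNA had in the Kdr counts was not tested. T cell genes stood at 0.775 in members and 0.594 in other base set cells.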

How the data were processed

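CD45+ tumor cells were tagged per mouse with Cell Multiplexing Oligos and pooled before droplet 3′ RNA libraries were made, and cells were split by tag into 1 matrix per mouse. The authors deposited unnormalized counts of unique molecular identifiers per gene and cell, made with Cell Ranger 6.1.2 on mm10 (file header and submitters' processing notes, which also name Seurat). Tag features, mitochondrial, ribosomal protein and Gm genes (8652 of 32285 genes) were kept out of gene tests, and no doublet caller was run: 9 members (1.08%) were among the highest 5% of counts of their mouse. The score, gates and shares were computed per cell in Python 3.11.15. Members, gene lists and motifs were chosen with earlier results of these data known.

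Counts were summed per mouse and population and tested in edgeR 4.0.16 (R 4.3.3) by the quasi-likelihood test with TMM scaling, filterByExpr and p-values adjusted by Benjamini-Hochberg over the whole table. The mouse was a block between populations, all 8 mice shared one fit between tumor lines, and the interaction asked whether a line difference differed between members and other cells. Score genes were left out of all these tests, and the genes of a gate out of the comparison with the cells of that gate. CPM are TMM-scaled, and errors are SE for log2 differences and SD for means. Named genes were the 10 largest differences in each direction with an adjusted p under 0.05 and at least 5 log2 CPM, with the same sign in all 8 mice, or no overlap between lines, and the most abundant and most different genes of each list; genes outside this rule (Cxcl3, Siglech, Ly6d and Sct among them) were named after their values were seen. Shares were compared by exact permutation. Cells were thinned to 2000 counts with a fixed seed. Alternatives changed the score limit, score genes, cells, depth, filter and tool (DESeq2 1.42.0), and left out each mouse. Gene positions are from GENCODE M21, and promoters from RefSeq; Hcar2 and Hmox1 were not matched there. Some genes that these rules would name are not reported here. The scripts were tested on simulated data.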

Additional observations from a re-analysis of the deposited data

Results flagged for a closer look

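For 17 values, the difference between tumor lines was not the same in Gdf15-high cells as in the other base set cells of the same mice, by an interaction term in the edgeR quasi-likelihood fit (Benjamini-Hochberg adjusted p under 0.05), with the named gene's values described above or given here. All are on the log2 scale, and a positive value means that the first line exceeded the second by more in the members.

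For E0771-Res1 against parental, these were Gclm (3.97 ± 0.68), Spp1 (3.34), Inhba (2.53), Hmox1 (2.40), Slc7a11 (1.79), the chemokine Ccl6 (1.40 ± 0.25, but 0.0078 without Gdf15 in the score), Creg1, a lysosomal glycoprotein (1.29), Cd14 (1.14), the chemokine Ccl9 (1.13) and Crip1 (1.00). The Gclm value rests on 3 parental member counts, and without parental mouse 1 the remaining parental members had none. Without either parental mouse the values of Gclm, Spp1, Slc7a11, Ccl6, Creg1, Ccl9 and Crip1 were no longer called, in the same direction, as was that of Inhba without mouse 1 and of Cd14 without mouse 3, whereas Hmox1 was called without any 1 of the 8 mice. Wfdc17 (0.92) and Prdx1 (0.86) were also called.

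For E0771-Res2 against parental, Inhba (2.65) and Ctsk (-1.62) differed. Ctsk in the other cells was at 21.0 and 25.7 CPM in parental and 142, 106 and 133 CPM in E0771-Res2 mice, against 160 and 128, then 329, 206 and 274 CPM in members. Neither Inhba nor Ctsk was called without parental mouse 1. These comparisons share the parental mice with those above.

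For E0771-Res2 against E0771-Res1, Gclm (-1.71), Hmox1 (-1.38), Slc48a1 (-1.31), Gpnmb (-0.83) and Ccl3 (-0.76) differed. Without Gdf15 in the score, Hmox1 was called in the opposite direction (1.496, edgeR adjusted p = 0.0017). All but Hmox1 were lost without E0771-Res2 mouse 1, and Slc48a1 and Gpnmb also without E0771-Res1 mouse 2. What part of these values comes from the unequal mix of Gdf15-led and Nupr1-led members in the lines was not tested.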

How the results depend on the processing

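The larger share of Gdf15-high cells in E0771-Res2 kept its direction in each alternative run, at 1.93 points above parental when Gdf15 was left out of the score. E0771-Res1 against parental turned to -1.31 points with the highest 20% of scores, -2.12 without Gdf15 in the score and -0.653 with the replicate block or without mouse 2 of E0771-Res1 (range without single mice -0.653 to 2.01), and both lines together turned to -0.0944 without Gdf15. The ranges without single mice were 7.24 to 8.57 points for E0771-Res2 against parental, 5.90 to 8.56 against E0771-Res1 and 3.42 to 5.55 for both lines.

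Genes called between members and other cells fell from 1878 to 1202 with the highest 5% of scores and to 847 at 2000 counts per cell, against C1q-high cells to 841 and against Ly6c2-high cells to 868, where fewer counts were tested. Between lines, counts of calls were small and moved with most choices. For E0771-Res1 against parental (3 calls), they were 22 with the highest 5%, 1 with the highest 20%, 0 with a thinned score or the highest 10% within each mouse, 6 in cells with a Csf1r count, 7 without neutrophil-marked cells, 1 without Kdr, without Hcar2 or with thinned counts, 22 in DESeq2 and 113 without the filter on low counts. For E0771-Res2 against parental (5 calls), the highest 5% and Csf1r cells gave 0, the highest 20% 93, cells without low tag shares 3, the within-mouse limit 36, the score without Gdf15 21, without Nupr1 3, without Kdr or Hcar2 2, thinned counts 1, DESeq2 11 and no filter 95. For E0771-Res2 against E0771-Res1 (40 calls), the same choices gave 21 (highest 5%), 156 (highest 20%), 78 (within mouse), 148 (without Gdf15), 26 (without Hcar2), 17 (thinned) and 187 (no filter). Without single mice the calls ranged from 0 to 23, 0 to 13 and 4 to 58 in these comparisons, lowest without a parental mouse for the first pair and without E0771-Res2 mouse 1 or 3 for the last, and 23 and 18 in the first without E0771-Res1 mouse 1 or 3.

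Interaction calls for E0771-Res1 against parental (12) were 49 with the highest 5%, 6 with the highest 20%, 2 with a thinned score, 19 in Csf1r cells, 23 without dendritic-marked cells and 61 without the filter. For E0771-Res2 against parental (2) they were 32, 6, 4 without the highest counts, 1 in Csf1r cells, 6 without low tag shares, 0 within mice, 4 without dendritic-marked cells or without Gdf15, 0 without Nupr1 or Kdr, 1 without Hcar2 or in DESeq2 and 23 without the filter. For E0771-Res2 against E0771-Res1 (9) they were 23, 4, 21 in Csf1r cells, 2 within mice, 28 without dendritic-marked cells, 5 without Gdf15, 23 without Nupr1, 2 in DESeq2 and 47 without the filter. Without single mice they ranged from 2 to 25, 0 to 7 and 4 to 22, lowest without a parental mouse, without parental mouse 1 and without E0771-Res2 mouse 1. The causes of these moves were not tested.

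Without Gdf15 in the score, Gclm and Hmox1 turned to 0.31 and 0.53 between E0771-Res2 and E0771-Res1, the interactions of Hmox1, Slc7a11 and Creg1 for E0771-Res1 against parental to -1.17, -0.16 and -0.46, and those of Gclm, Hmox1, Slc48a1 and Gpnmb between the resistant lines to 1.498, 1.496, 0.27 and 0.0086. The Inhba interaction for E0771-Res2 turned to -0.044 without Nupr1, and Serpinb6b to 0.22 without dendritic-marked cells. Of the other values for single genes, 2300 kept their direction and side of the threshold and 358 kept only their direction.

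Between mice of equal replicate number, deviations from the group means correlated at -0.068 to 0.059. With so few mice per group, these correlations do not settle whether the numbers pair the mice. With the number as a replicate block, the calls between lines were 10, 4 and 40, and the differences in share were 8.57 points (E0771-Res2 against parental), 7.03 and 3.96. A limit of 90% on the leading tag was not run, as 200 of 8375 cells reached it. Alternatives without low tag shares, neutrophil-marked or dendritic-marked cells were chosen after seeing the data. Members per mouse (27 to 235) limit what the parental comparisons can show.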
